A study of Mus musculus with 4 samples.

Results

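The genes described here are 9 genes of B cells and of the plasma cells they become, measured in mouse mammary tumours. They were picked by gene symbol and are 9 of the 20555 genes in the deposited table: Cd79a, Cd79b, Ms4a1, Cd22, Ighm, Ighg2b, Igkc, Jchain and Mzb1. Bulk RNA was sequenced from 2 MYC-PyMT and 2 Control-PyMT tumours. The MYC-PyMT mice carry S100a8-cre, a Rosa26-LSL-MYC allele and PyMT, so that Cre driven from S100a8, a gene of neutrophils and other myeloid cells, removes the stop cassette in front of MYC. The Control-PyMT mice carry PyMT, the polyoma virus middle T antigen that gives mammary tumours and that both groups share. The labels do not say whether the controls carry the Cre or the MYC allele, which promoter drives PyMT, the age of the mice, or whether the 2 tumours of a group came from separate mice. The p-values therefore measure the spread between these samples, which may be technical in part. Libraries held 31783846 to 34190913 reads in genes, and values are given as scaled counts, the authors' read counts divided by a size factor for each library, with 1 read worth 0.849 to 1.10 scaled counts.

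B cells recognise antigen through a surface immunoglobulin of heavy and light chains that signals through Cd79a and Cd79b. Naive B cells make the heavy chains of IgM and IgD, and class switching replaces them with those of IgG, IgE or IgA. Plasma cells turn the same immunoglobulin into a secreted antibody, lose most B cell surface proteins, and in the mammary gland are known above all for the IgA that epithelium carries into milk. J chain joins secreted IgA into dimers and IgM into pentamers by a short tailpiece at the end of their heavy chains, and IgG has no such tail.

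The tailpiece is shown for the heavy chains on which the results below turn, because it is the stretch that ties Ighm and Igha, the IgA heavy chain gene, to Jchain. The sequences are the coding bases present in the secreted form and absent from the membrane form, without the stop codon, in the GENCODE M21 annotation of GRCm38, read 5′ to 3′ on the minus strand, at chr12:113258771-113258829 for Igha and chr12:113420870-113420928 for Ighm.
Igha: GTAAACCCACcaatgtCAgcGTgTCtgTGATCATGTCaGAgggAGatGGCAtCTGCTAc
Ighm: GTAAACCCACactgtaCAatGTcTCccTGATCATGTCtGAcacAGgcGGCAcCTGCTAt
Capitals mark the bases that are the same in both, 40 of 59, or 67.8%. The secreted form of Ighg2b adds 5 coding bases at this place, at chr12:113306392-113306396. Reads were counted per gene, so secreted and membrane forms of a heavy chain could not be told apart in the values that follow.

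The 9 genes did not move together. Jchain and Igkc rose in MYC-PyMT tumours, Ighm and Ms4a1 fell, and Cd79a, Cd79b, Cd22, Ighg2b and Mzb1 did not pass the test. All 9 reached the level needed for testing, 10 scaled counts in 2 or more of the libraries, and 4 of 9, or 44.4%, were called by limma at an adjusted p under 0.05. Of all 16725 genes tested, 47.9% were called, 23.3% higher and 24.6% lower in MYC-PyMT, so the share of the 9 that was called lay near that of all genes. On the recovered reads, edgeR called 47.4% of all genes and the same 2 higher and 2 lower members, and DESeq2 called 43.6% of all genes and 3 members, without Ms4a1. The groups did not overlap for 6 of the 9, against 75.7% of all genes tested. In bulk tumour RNA, fewer cells of a type and less RNA per cell cannot be told apart.

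**Figure D1:**
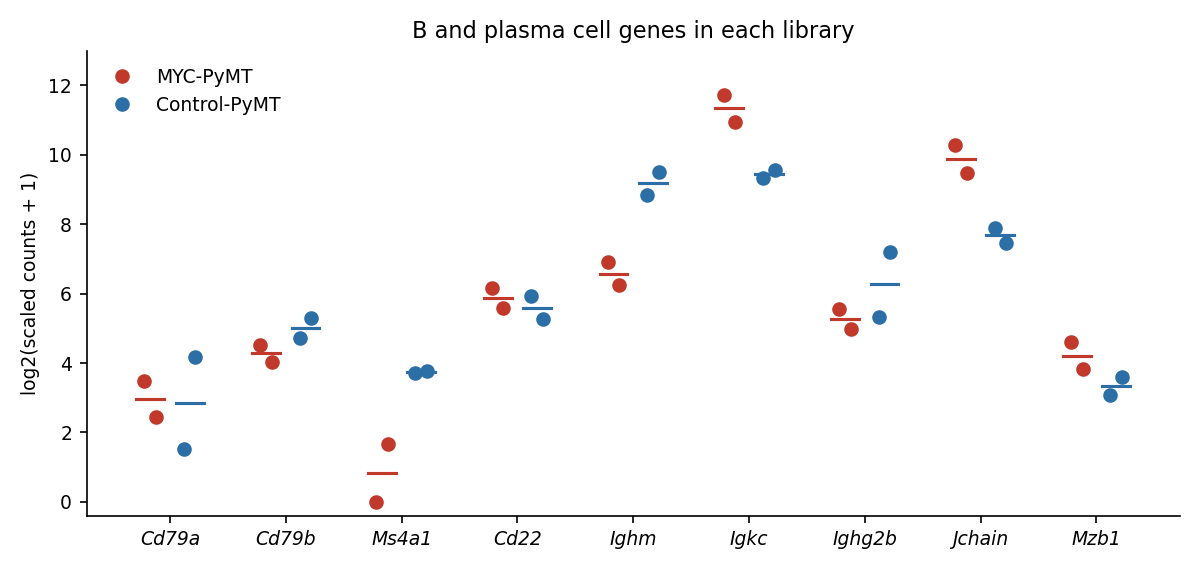
Level of each of the 9 genes, as log2(scaled counts + 1), with 1 point for each library and a bar at the mean, MYC-PyMT to the left of Control-PyMT. Jchain and Igkc lie higher in both MYC-PyMT libraries, Ighm and Ms4a1 lie lower in both, and the points of Cd79a, Cd22 and Ighg2b overlap between groups.

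Jchain encodes the J chain and is on chromosome 5 (GRCm38, chr5:88519809-88527891, ENSMUSG00000067149.6). Its level was 1252 and 713 scaled counts in MYC-PyMT tumours, against 238 and 177 in Control-PyMT tumours. Both MYC-PyMT libraries lay above both Control-PyMT libraries, and the lower MYC-PyMT value was above the higher control value by more than the gap between the controls. The means were 983 ± 381 in MYC-PyMT and 208 ± 43.7 in Control-PyMT (SD, n = 2 each). Its log2 change, taken as MYC-PyMT minus Control-PyMT on log2(value + 1), was 2.20 (SE 0.30, limma adjusted p = 0.000332).

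Igkc encodes the constant region of the kappa light chain, which most mouse antibodies carry (chr6:70726435-70726966, ENSMUSG00000076609.2). It had 3388 and 1976 scaled counts in MYC-PyMT, against 639 and 760.2 in Control-PyMT. The groups did not overlap, and MYC-PyMT replicate 1 was the higher library here as it was for Jchain. The log2 change of Igkc was 1.89 (SE 0.26, limma adjusted p = 0.000343), with means of 2682 ± 999 in MYC-PyMT and 699 ± 85.9 in Control-PyMT (SD, n = 2 each). Igkc has a transcript of 532 bases, and short transcripts lay higher in MYC-PyMT as a class: the shortest eighth of transcripts, 2086 genes, had a median log2 change of 0.52, against −0.02 for all genes. With the trend on transcript length removed the log2 change of Igkc was 1.28 and that of Jchain 2.16, both still called. Kappa took 97.1% and 97.4% of light chain constant region reads in MYC-PyMT and 95.3% and 95.7% in Control-PyMT. Of the lambda constant regions, Iglc2 had 42.3 and 18.7 scaled counts in MYC-PyMT and 4.68 and 10.2 in Control-PyMT (log2 change 1.87, limma adjusted p = 0.0210). The call of Iglc2 was lost without MYC-PyMT replicate 1 (0.122), without Control-PyMT replicate 1 (0.168) or 2 (0.0650), and with DESeq2 (0.0779).

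Ighm encodes the constant region of the IgM heavy chain (chr12:113418558-113422730, ENSMUSG00000076617.9), whose tail is printed above. Its level was 119 and 74.7 scaled counts in MYC-PyMT tumours, against 462 and 721 in Control-PyMT tumours. Both MYC-PyMT libraries were low, and the groups did not overlap. Ighm averaged 96.7 ± 31.1 in MYC-PyMT and 592 ± 183 in Control-PyMT (SD, n = 2 each), a log2 change of −2.60 (SE 0.32, limma adjusted p = 0.000198). Ighd, the IgD heavy chain gene that naive B cells transcribe together with Ighm, had 6.04 and 1.10 scaled counts in MYC-PyMT and 14.0 and 21.2 in Control-PyMT. It reached the level for testing through Control-PyMT alone. Its log2 change was −2.25 (SE 0.66, limma adjusted p = 0.0187), a call that was lost without MYC-PyMT replicate 2 (adjusted p = 0.0972), without Control-PyMT replicate 1 (0.0994) or 2 (0.164), and with DESeq2 (0.149).

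Ighg2b encodes the constant region of an IgG heavy chain (chr12:113302965-113307933, ENSMUSG00000076613.3). It had 46.3 and 30.8 scaled counts in MYC-PyMT, against 39.3 and 146 in Control-PyMT, and the groups overlapped because Control-PyMT replicate 1 lay between the MYC-PyMT libraries. Its log2 change of −0.99 (SE 0.56) did not pass the test (limma adjusted p = 0.171). That value rested on single libraries: it was −0.06 (adjusted p = 0.930) without Control-PyMT replicate 2, −1.92 (0.0414) without Control-PyMT replicate 1, and −1.28 (0.0376) without MYC-PyMT replicate 1. The other IgG heavy chains tested did not pass either, with log2 changes of −1.16 for Ighg2c (adjusted p = 0.0843) and −0.047 for Ighg3 (adjusted p = 0.963), although Ighg2c was called without MYC-PyMT replicate 1 (−1.60, adjusted p = 0.0276) and Ighg3 was above 0 without MYC-PyMT replicate 1 (0.45) or Control-PyMT replicate 2 (0.84). Ighg1 did not reach the level for testing, with 14.1 and 6.59 scaled counts in MYC-PyMT and 0.935 and 4.25 in Control-PyMT, from 20 reads in MYC-PyMT and 6 in Control-PyMT, and its groups did not overlap. Near-identical stretches among the IgG genes may have shared reads.

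The members include no IgA gene, and the heavy chain comparison turns on it. Igha (chr12:113254830-113260236, ENSMUSG00000095079.6) had 3286 and 1790.2 scaled counts in MYC-PyMT tumours, against 439 and 374 in Control-PyMT tumours. Both MYC-PyMT libraries stood far above the controls, again with replicate 1 the higher. The means were 2538 ± 1058 and 406 ± 45.9 in MYC-PyMT and Control-PyMT (SD, n = 2 each), a log2 change of 2.58 (SE 0.28, limma adjusted p = 9.4e-05), so that Igha and Ighm moved in opposite directions. Of 14 constant region genes listed, 9 were tested: Igha, Igkc and Iglc2 rose, Ighm and Ighd fell, and 4 did not pass the test. Ighd reached the level for testing through Control-PyMT alone. The 5 called were 55.6% of the 9, against 47.9% of all genes. That count of 5 became 3 without Control-PyMT replicate 2 and with DESeq2.

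As a share of heavy chain constant region reads, Igha took 94.1% in MYC-PyMT replicate 1 (Wilson 95% interval 93.2% to 94.8%, of 3471 reads) and 93.1% in replicate 2 (91.8% to 94.2%, of 1750 reads). In Control-PyMT it took 44.8% in replicate 1 (41.8% to 47.8%, of 1048 reads) and 28.3% in replicate 2 (26.1% to 30.6%, of 1554 reads). The intervals cover counting error alone, and the share differed more between groups than between replicates. Ighm took 3.40% and 3.89% of heavy chain reads in MYC-PyMT and 47.1% and 54.6% in Control-PyMT. The IgG genes together took 2.36% and 2.97% in MYC-PyMT and 6.68% and 15.4% in Control-PyMT. These shares are given as values, with no test.

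**Figure D2:**
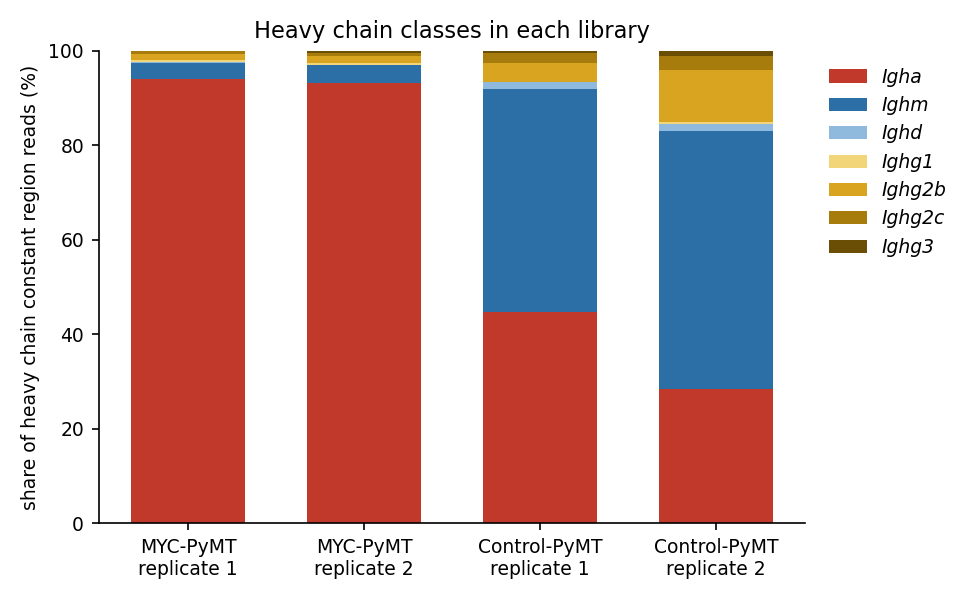
Share of the heavy chain constant region reads of each library, in %, taken by each heavy chain gene, MYC-PyMT libraries left of Control-PyMT libraries. Igha fills 94.1% and 93.1% of the MYC-PyMT bars, and Ighm is the largest block of both Control-PyMT bars with 47.1% and 54.6%.

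Set per kilobase of transcript, the ratio of Igha to Ighm was 37.6 and 32.5 in MYC-PyMT tumours and 1.29 and 0.703 in Control-PyMT tumours. Which of the pair is higher in Control-PyMT replicate 1 depends on the transcript used, since Igha took 50.9% of heavy chain signal per kilobase with the first annotated transcript of each gene and 35.4% with the longest. The ratio of Jchain to Igha per kilobase was 0.301 and 0.315 in MYC-PyMT, against 0.429 and 0.373 in Control-PyMT. That of Igkc to Igha was 2.13 and 2.28 in MYC-PyMT and 3.01 and 4.21 in Control-PyMT. Jchain and Igkc differed less from Igha between groups than Ighm did. Per kilobase, levels ran in the order Igkc, Igha, Jchain, Ighm in both MYC-PyMT libraries, with 6369, 2987, 899 and 79.5 scaled counts per kilobase in replicate 1 and 3714, 1627, 512 and 50.1 in replicate 2. In Control-PyMT the order was Igkc, Igha, Ighm, Jchain in replicate 1 and Igkc, Ighm, Igha, Jchain in replicate 2. Cd79a, Cd79b, Cd22, Ms4a1 and Mzb1 lay below 30 scaled counts per kilobase in all 4 libraries.

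Mzb1, an endoplasmic reticulum protein that helps assemble IgM and is used as a plasma cell marker, is on chromosome 18 (chr18:35647267-35649367, ENSMUSG00000024353.4). It had 23.1 and 13.2 scaled counts in MYC-PyMT, against 7.48 and 11.0 in Control-PyMT. The groups did not overlap, but the lower MYC-PyMT value lay close to the higher control value. Its log2 change of 0.87 (SE 0.51) did not pass the test (limma adjusted p = 0.183). Plasmacytoid dendritic cells also make Mzb1, and of 14 of their markers tested 1 rose and 5 fell. The share called was 42.9%, against 47.9% of all genes. The summed levels of their markers were 6237 to 7468 scaled counts in MYC-PyMT and 14837 to 16654 in Control-PyMT. Without Irf7 and Ly6d, which other cells also make, the sums were 5145 and 5500.2 in MYC-PyMT and 5703 and 5902 in Control-PyMT. Most of what remained was Tcf4 and Bst2. Tcf4 had 2997 and 2791 scaled counts in MYC-PyMT and 2515 and 2566 in Control-PyMT. Bst2 had 1221 and 1682 in MYC-PyMT and 1685 and 1941 in Control-PyMT. Siglech, a defining marker of plasmacytoid dendritic cells, had 4 reads in MYC-PyMT and 31 in Control-PyMT. It reached the level for testing through Control-PyMT alone. The 1 marker that rose was Il3ra (log2 change 1.46, limma adjusted p = 0.0257). The part of such cells in the value of Mzb1 was not tested.

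Ms4a1 encodes CD20, a surface protein of mature B cells that plasma cells lack (chr19:11249675-11266241, ENSMUSG00000024673.9). It had 0 and 2.20 scaled counts in MYC-PyMT, from 0 and 2 reads, against 12.2 and 12.7 in Control-PyMT, from 13 and 15 reads. Both MYC-PyMT libraries lay below both controls, and the gene reached the level for testing through the controls alone. By reads it was 11.9-fold lower in MYC-PyMT, with an exact 95% counting interval of 2.99 to 103. The fitted log2 change of −2.91 (SE 0.69, limma adjusted p = 0.00685) is on a scale that understates changes of low genes. The call was lost without Control-PyMT replicate 1 (adjusted p = 0.0701) or 2 (0.0773) and with DESeq2 (0.0987).

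Cd79a and Cd79b are the signalling chains of the B cell receptor, and neither passed the test. Cd79b (chr11:106311341-106314762, ENSMUSG00000040592.11) had 22.1 and 15.4 scaled counts in MYC-PyMT, against 25.3 and 38.2 in Control-PyMT, a log2 change of −0.72 (SE 0.44, limma adjusted p = 0.204). Its groups did not overlap, with a gap between them smaller than that between the controls. Cd79a (chr7:24897381-24902197, ENSMUSG00000003379.7) had 10.1 and 4.40 scaled counts in MYC-PyMT, against 1.87 and 17.0 in Control-PyMT. These are 10 and 4 reads in MYC-PyMT and 2 and 20 reads in Control-PyMT. Its Control-PyMT libraries lay on either side of the MYC-PyMT libraries, and the log2 change of 0.10 (SE 0.83, limma adjusted p = 0.930) changed sign under 6 of 13 alternatives. Its mean scaled count ran the other way, with 7.23 ± 4.01 in MYC-PyMT and 9.43 ± 10.7 in Control-PyMT (SD, n = 2 each). The gap between the Control-PyMT libraries was larger than the difference between the group means. Per kilobase, Ighm stood 5.14 and 4.66 times as high as Cd79b in MYC-PyMT and 17.5 and 18.1 times in Control-PyMT, while Jchain stood 58.1 and 47.6 times as high as Cd79b in MYC-PyMT and 9.70 and 4.75 times in Control-PyMT.

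Cd22, a sialic acid binding receptor that dampens signalling from the B cell receptor (chr7:30865402-30880342, ENSMUSG00000030577.13), had 70.4 and 47.3 scaled counts in MYC-PyMT, against 59.9 and 37.4 in Control-PyMT. The groups overlapped, and its log2 change of 0.28 (SE 0.40, limma adjusted p = 0.584) turned to −0.002 without MYC-PyMT replicate 1 and to −0.052 without Control-PyMT replicate 2. The genes nearest to Cd22 in pattern over the 4 libraries, by Euclidean distance of centred log2 values, were Atp1b1 (0.0310), Fut2 (0.124) and Ctnnal1 (0.139). Those nearest to Igkc were Whrn (0.239), Trmt112-ps2 (0.251) and Xylb (0.251). Such likeness over 4 libraries is a description.

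**Figure D3:**
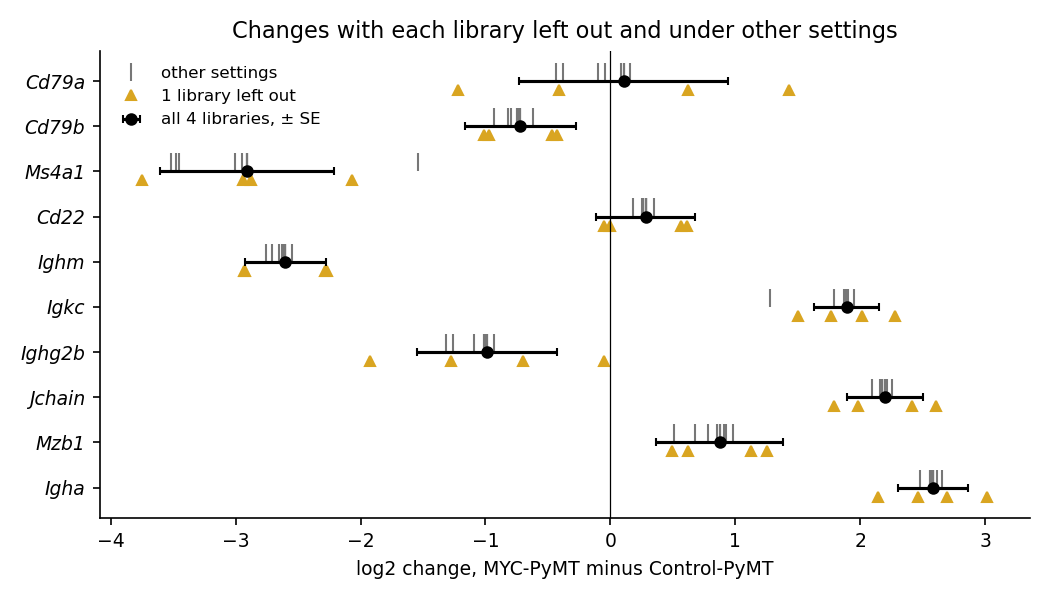
Log2 change, MYC-PyMT minus Control-PyMT, of the 9 genes and Igha from all 4 libraries (black points, ± SE), with 1 library left out (triangles) and under the other settings (ticks). Jchain, Igkc and Igha stay above 0 and Ighm and Ms4a1 below it throughout, while Cd79a and Cd22 fall on both sides.

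Variable segments, which recombination joins to the constant regions, were read from all symbols starting with Ighv, Igkv or Iglv. The table holds 62 of them, by an unstated rule of the authors, 24 heavy, 36 kappa and 2 lambda, and near-identical segments may have shared reads. Their sum was 1228 and 664 scaled counts in MYC-PyMT tumours, against 289.9 and 257 in Control-PyMT tumours. Mean levels were higher in MYC-PyMT for 56 segments and lower for 6. Both MYC-PyMT libraries lay above both controls for 52 and below for 1, against 34.6% and 37.5% of all genes in the table. Of the 62, 8 had no read in Control-PyMT and 0 had none in MYC-PyMT. Under the authors' unstated rule, segments may be in the table through MYC-PyMT reads alone. The counts over the 62 therefore may not describe all variable segments. Of the 21 segments that reached the level for testing, 15 rose, none fell and 6 did not pass. The share called was 71.4%, against 47.9% of all genes. But 13 of the 21 reached that level through MYC-PyMT alone and none through Control-PyMT alone, so these counts do not describe all 62. The count of 15 was 7 with DESeq2 and 41 with no level needed, all higher in MYC-PyMT.

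Among the segments with the smallest limma p, Igkv6-32 had 49.3 and 18.7 scaled counts in MYC-PyMT and 0.935 and 0 in Control-PyMT, from 66 reads in MYC-PyMT and 1 in Control-PyMT, 77.9-fold higher by reads (exact 95% counting interval 13.5 to 3123). Igkv1-135 had 75.5 and 30.8 scaled counts in MYC-PyMT and 3.74 and 2.55 in Control-PyMT (log2 change 3.59). Ighv14-4 had 18.1 and 14.3 in MYC-PyMT and 0.935 and 0.849 in Control-PyMT (18.3-fold, 4.65 to 158), and Ighv1-55 had 18.1 and 11.0 in MYC-PyMT and 0.935 and 0 in Control-PyMT (33.0-fold, 5.46 to 1351). These 4 were near the lowest measurable level in the controls. No read of Igkv17-121, Igkv4-57, Igkv3-10, Ighv13-2, Ighv3-8, Igkv3-2, Ighv1-85 or Igkv6-14 was counted in Control-PyMT. Against a floor of 3 reads per library, these 8 segments were at least 2.16-fold to 4.33-fold higher in MYC-PyMT, with its 2 libraries pooled. In MYC-PyMT replicate 2, Ighv1-85 had 1 read and Igkv4-57 had 2, below that floor. The bounds of these 2 segments therefore rest on MYC-PyMT replicate 1.

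**Figure D4:**
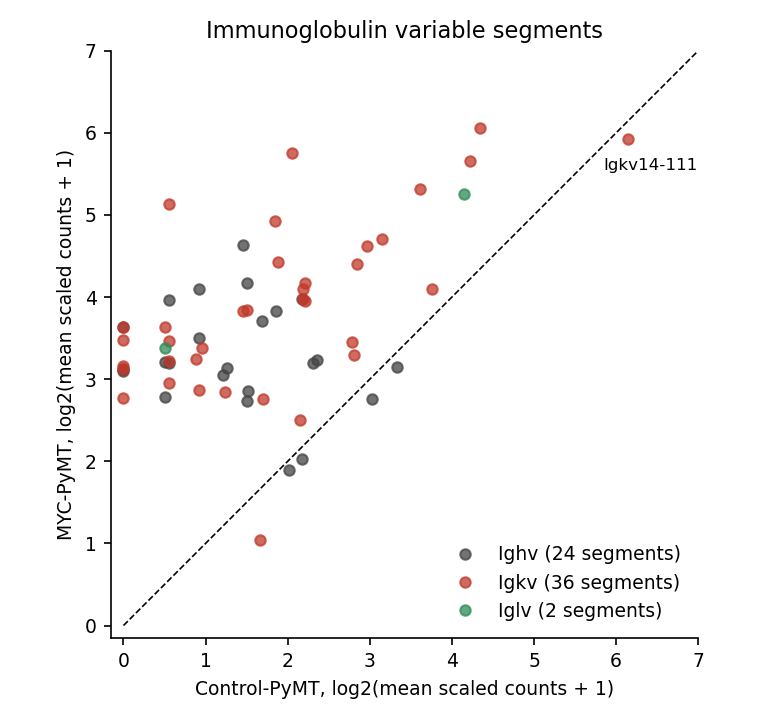
Mean level of each of the 62 variable segments in MYC-PyMT (vertical) against Control-PyMT (horizontal), both as log2(mean scaled counts + 1), with a dashed line of equal levels. The means of 56 segments lie above the line and those of 6 below it, Igkv14-111 among the 6.

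Other B lineage lists differed in direction: no surface or receptor signalling gene was called higher, while transcription factors and secretory genes were called both ways. Both MYC-PyMT libraries lay below both controls for 18 of 24 surface genes and 15 of 23 signalling genes in the table. They lay above both controls for 1 gene of each list. Of all genes in the table, 37.5% lay below and 34.6% above in this way. Of 18 B cell surface and co-receptor genes tested, 7 fell, none rose and 11 did not pass, with a median log2 change of −0.72 against −0.02 for all genes. The share called was 38.9%, against 47.9% of all genes, and 4 of the 18 reached the level for testing through Control-PyMT alone. The 4 with the smallest p were Cd55, which shields cells from complement (log2 change −3.64, limma adjusted p = 3.8e-06), Cd72, a B cell inhibitory receptor (−1.70), Fcrl5 (7.91-fold lower by reads, 3 in MYC-PyMT and 28 in Control-PyMT, exact 95% counting interval 2.44 to 40.6) and Cd81, a tetraspanin (−0.78). These 4 fell, and Cd55 and Cd81 are made by many cell types, with 228 to 271 scaled counts of Cd55 in MYC-PyMT and 2988 to 3271 in Control-PyMT. The count of 7 became 4 without MYC-PyMT replicate 1 or either Control-PyMT replicate and 3 with DESeq2, and the call of Cd81 was lost without MYC-PyMT replicate 1 (adjusted p = 0.0926) and that of Fcrl5 with DESeq2 (0.121).

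Of 22 receptor signalling genes tested, 7 fell, none rose and 15 did not pass (median log2 change −0.31). The share called, 31.8%, was below that of all genes, 47.9%. Dapp1, an adaptor downstream of PI3K, had a log2 change of −1.89 (limma adjusted p = 0.000118). Ptpn6 (−1.26) and Ptprc (−1.09), phosphatases of leukocytes at large, fell as well. Markers of other leukocytes moved too: the 21 T and NK cell markers listed had summed levels of 630.0 and 926 scaled counts in MYC-PyMT and 1367 and 1601 in Control-PyMT. Of these sums Thy1, which did not pass the test, held 455 and 695 in MYC-PyMT and 449 and 645 in Control-PyMT. Of the 17 T and NK cell markers tested 15 fell, a share called of 88.2% against 47.9% of all genes. But 13 of the 17 reached the level for testing through Control-PyMT alone, so this count does not describe the whole list. Gzma and Cd8a, with the smallest p among them, had 3 and 8 reads in MYC-PyMT and 198 and 191 in Control-PyMT. Of 10 leukocyte markers, 4 fell, Cytip (−1.24) and Cd52 (−1.35) among them, a share called of 40% against 47.9% of all genes. The sums of the 10 were 7248 and 8298 in MYC-PyMT and 13357 and 13014 in Control-PyMT. Without Cytip and Cd52 the sums were 4495 and 4966 in MYC-PyMT and 5813 and 6044 in Control-PyMT. The part of these cells in the values of the shared signalling genes was not tested.

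Of 16 B cell transcription factors tested, 3 rose, 5 fell and 8 did not pass (median log2 change −0.39), a share called of 50% against 47.9% of all genes. Pou2af1, the octamer coactivator of B cells, had 23.1 and 9.89 scaled counts in MYC-PyMT and 212 and 239 in Control-PyMT (log2 change −3.80, limma adjusted p = 0.000109). Both MYC-PyMT libraries were far below the controls. Ikzf3 (−2.90) and Pou2f2 (−1.78) fell too, the call of Pou2f2 being lost without Control-PyMT replicate 2 (adjusted p = 0.0672), and Bcl11a rose (1.29). Pax5, which fixes B cell identity, had 38.2 and 14.3 scaled counts in MYC-PyMT and 40.2 and 52.7 in Control-PyMT and did not pass the test (adjusted p = 0.144), which it passed without MYC-PyMT replicate 1 (log2 change −1.62, adjusted p = 0.0148). The count of 8 called became 5 without MYC-PyMT replicate 2 or either Control-PyMT replicate.

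Of 20 plasma cell and secretory genes tested, 2 rose, 5 fell and 13 did not pass (median log2 change 0.00 at 2 decimals). The share called, 35%, was below the 47.9% of all genes. Fkbp11, a folding enzyme of the secretory pathway, had 2985 and 2681 scaled counts in MYC-PyMT and 660.3 and 617 in Control-PyMT (log2 change 2.15, limma adjusted p = 3.3e-05). Ssr4, a subunit of the translocon complex, rose by 0.94. Xbp1 (−1.05) and Prdm1 (−1.57), the transcription factors of the plasma cell programme, fell. Secretory epithelium makes Xbp1 and Fkbp11 as well, and Xbp1 stood at 21607 to 29230 scaled counts in MYC-PyMT and 50922 to 53028 in Control-PyMT. Sdc1, a plasma cell surface marker that epithelium also carries, had 3225 and 3963 in MYC-PyMT and 7630.3 and 5873 in Control-PyMT, and it fell (−0.90) with all libraries but not without MYC-PyMT replicate 1 (adjusted p = 0.0543) or Control-PyMT replicate 1 (0.0574). Of 10 mammary epithelial markers, 1 rose and 3 fell, Krt7 (−1.78) and Cdh1 (−0.62) among those that fell. The share called was 40%, against 47.9% of all genes. The sums of the 10 were 106036 and 123191 in MYC-PyMT and 142087 and 134339 in Control-PyMT. The part of epithelium in these values was not tested. The count of 7 called became 2 without Control-PyMT replicate 1, where Xbp1 (adjusted p = 0.0545) and Prdm1 (0.109) were lost. Xbp1 was also lost without MYC-PyMT replicate 2 (0.0892), Prdm1 without Control-PyMT replicate 2 (0.0726), and Cdh1 without either MYC-PyMT replicate (0.132 and 0.200) or without Control-PyMT replicate 1 (0.0672).

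**Figure D5:**
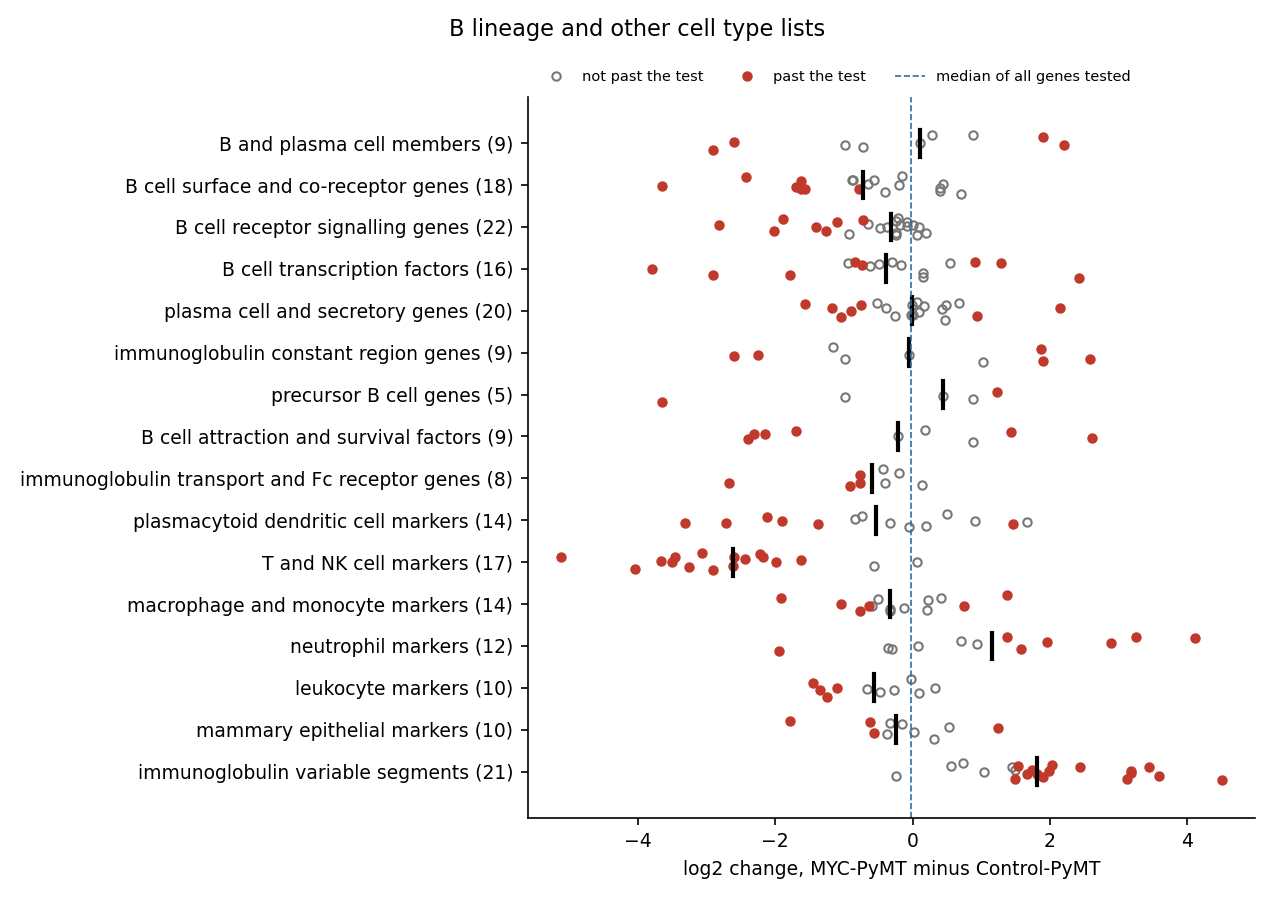
Log2 change, MYC-PyMT minus Control-PyMT, of each tested gene of the B lineage lists and of markers of other cell types, with filled points past the test, open points not past it, a bar at the median of each list and a dashed line at the median of all genes, −0.02. T and NK cell markers lie mostly to the left of the line, variable segments to its right, and the other B lineage lists on both sides.

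Precursor B cell genes were few: 5 of 12 were tested, of which Erg rose (log2 change 1.23) and Lef1 fell (−3.64), both also made outside the B lineage, while Il7r (0.88) and Cd93 (0.44) did not pass. The share called was 40%, against 47.9% of all genes. Of the 5 tested 2, Lef1 among them, reached the level for testing through Control-PyMT alone. Of 9 factors that attract B cells or keep them alive, 2 rose and 4 fell. The share called was 66.7%, against 47.9% of all genes. Among them Ccl20 reached the level for testing through MYC-PyMT alone and Ltb through Control-PyMT alone. Ccl20, the ligand of Ccr6, had 32.2 and 36.3 scaled counts in MYC-PyMT and 6.55 and 3.40 in Control-PyMT (log2 change 2.61, limma adjusted p = 0.00199). Cxcl12, which holds plasma cells and precursors in their niches, had 428 and 371 in MYC-PyMT and 1804 and 2456 in Control-PyMT (−2.40). Ltb (−2.15) and Il7 (−1.70) fell, Il7 losing its call without Control-PyMT replicate 1 (adjusted p = 0.0779), where the count of 6 became 3.

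Pigr, the receptor by which epithelium carries J chain bearing IgA and IgM across the cell, had 5923 and 3974 scaled counts in MYC-PyMT tumours and 7489 and 11173 in Control-PyMT tumours. The groups did not overlap. The log2 change of Pigr was −0.91 (SE 0.26, limma adjusted p = 0.0145), opposite in sign to those of Igha and Jchain. The call was lost without MYC-PyMT replicate 2 (0.132), without Control-PyMT replicate 2 (0.173) and without the variance trend (0.0683). Fcamr, a receptor for IgM and IgA, had 3 reads in MYC-PyMT and 27 in Control-PyMT, 7.63-fold lower (exact 95% counting interval 2.35 to 39.3). It reached the level for testing through Control-PyMT alone. The share called among 8 transport and Fc receptor genes was 50%, against 47.9% of all genes. Of the 8, 4 fell and none rose: Pigr, Fcamr and the IgG receptors Fcgr1 (−0.76) and Fcgr4 (−0.77). That count fell to 2 without MYC-PyMT replicate 1, 0 without MYC-PyMT replicate 2, 1 without Control-PyMT replicate 1 and 0 without Control-PyMT replicate 2, so none of the 4 calls held with every library left out in turn.

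Of the remaining cell types whose markers were listed, 2 of 14 macrophage and monocyte markers rose and 4 fell, with Cx3cr1 at a log2 change of −1.91 and Cd68 at 1.38. Of 12 neutrophil markers, 6 rose and 1 fell, with Prtn3 at 2.88 and Ngp at 4.11. The share called was 42.9% of the macrophage and monocyte markers and 58.3% of the neutrophil markers, against 47.9% of all genes. Of the 12 neutrophil markers 3, Ngp among them, reached the level for testing through MYC-PyMT alone. Among plasmacytoid dendritic cell markers the smallest p belonged to Irf7 (−3.32) and Ly6d (−2.11), both also made by other cells. The summed macrophage and monocyte level was 40122 and 44168 scaled counts in MYC-PyMT and 37241 and 34887 in Control-PyMT. Without Lyz2 it was 20926 and 24476 in MYC-PyMT and 24681 and 24119 in Control-PyMT, so that the direction rested on that gene. The neutrophil sum was 11276 and 11853 in MYC-PyMT and 34981 and 21856 in Control-PyMT. Without Ltf the direction turned, with 4011 and 5835 in MYC-PyMT and 3446 and 1306 in Control-PyMT. Without Ltf and Prtn3 the groups overlapped, with 2905 and 4151 in MYC-PyMT and 3282 and 1101 in Control-PyMT. The part of these cells in the levels of the 9 genes was not tested.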

How the data were processed

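RNA of 4 tumours was poly(A) selected and made into TruSeq stranded libraries from 500 ng with 8 PCR cycles, with RNA integrity numbers of 3.3 to 9.6 that are not tied to samples, per the labels' protocols. Alignment used HISAT2 against mm10 (GRCm38.p5), and DESeq2 was used, per the submitters' processing notes. No source used here names the counter, its strand setting or its annotation, so overlapping and antisense genes may share reads, among them genes overlapping Igkc, Mzb1, Ms4a1 and Cd22. The deposited signal is scaled counts for 20555 genes, not divided by length. Every value (100%) was a whole multiple of 1 read within 0.001 reads, so reads were recovered.

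Log2(value + 1) was tested with limma 3.58.1 (lmFit, eBayes with a variance trend, two-sided) in R 4.3.3, over 16725 genes with at least 10 in at least 2 libraries, with Benjamini-Hochberg adjustment over all of them and a threshold of 0.05. Counting intervals and floors cover counting error only. GENCODE M21 held 20463 of the gene IDs and gave coordinates, lengths and sequences. The 9 genes and the lists were chosen with earlier results of these data known. Named were the 9, the 4 genes of each other B lineage list (2 of other cell types) with the smallest p, genes without reads in a group, and the 3 nearest in pattern to Cd22 and to Igkc; some genes that the rule names are not reported here. Igha, Ighg1, Ighg2c, Ighg3, Ltf, Lyz2, Ighd, Iglc2, Pax5, Sdc1, Siglech, Il3ra, Tcf4, Bst2, Thy1, Igkv14-111 and those of the closing observations that are outside this rule were picked after their values were seen. Alternatives were other pseudocounts, level filters and scalings, no variance trend, a replicate block, each library left out, removal of the trend on transcript length, and edgeR 4.0.16 and DESeq2 1.42.0 on the reads. Only the main limma fit was tested on simulated data first, with far fewer genes changed than were called here.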

Additional observations from a re-analysis of the deposited data

How the results depend on the processing

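The number of genes changed was 8010 with all libraries and 5236 to 6480 with 1 library left out, the lowest without Control-PyMT replicate 2. The cause of the difference between libraries was not tested. Jchain, Igkc, Ighm and Igha kept their direction and their call under all 15 alternatives, with log2 changes of 1.79 to 2.60, 1.28 to 2.28, −2.93 to −2.27 and 2.14 to 3.02. Ms4a1 kept its direction under 14. Cd79a, at 0.10 with all libraries, was −0.047 with a pseudocount of 5, −0.44 with edgeR, −0.38 with DESeq2, −0.10 with the length trend removed and −1.22 to 1.43 with 1 library left out. With 1 library left out, Cd22 ran from −0.052 to 0.61, Atp1b1 from −0.042 to 0.63, Ighg3 from −0.94 to 0.84 and Igkv14-111 from −0.58 to 0.080. The 5 constant region calls became 3 with a level filter of 50, 3 with DESeq2 and 3 to 6 with 1 library left out. The 15 variable segment calls became 41 with no level filter, 0 with a filter of 50, where 1 segment was tested, 7 with DESeq2 and 11 to 16 with 1 library left out. Upper-quartile scaling moved the median of all genes by −0.11. Of 942 values of the 64 other named genes, 52 lost and 9 gained a call and 5 reversed, and of 210 list counts 27 moved by over 1.5 times.

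With the replicate number as a block, the number of genes changed was 8039 and the number of members 4. Same-numbered samples did not deviate together (r = −0.0886 across 16725 genes, which are not independent), and with 2 numbers the labels give no pairing. Leaving out a library leaves 1 sample in a group, which is then assumed to vary like the other group. Members with few reads limit precision most: Cd79a and Ms4a1 had 20 reads or fewer in each library. A level filter of 50 left 4 members tested, and upper-quartile scaling left Cd79a untested.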

Other observations

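Genes that guide IgA plasma cells to mucosal and mammary tissue were listed after the values above were seen, and 6 of 10 were tested. Ccl28, the chemokine with which mammary epithelium attracts IgA plasma cells, had 1964 and 989 scaled counts in MYC-PyMT tumours, against 124 and 52.7 in Control-PyMT tumours. Both MYC-PyMT libraries stood above the controls, with replicate 1 the higher as it was for Igha, Jchain and Igkc. The log2 change of Ccl28 was 4.09 (SE 0.42, limma adjusted p = 7.4e-05). Its receptor Ccr10 had 6 reads in MYC-PyMT and 11 in Control-PyMT and was not tested. Vcam1, the endothelial ligand of the integrin Itga4, fell (−1.43, limma adjusted p = 0.000788), as did Itgb7 (−2.10, limma adjusted p = 0.00313), which pairs with Itga4 in gut homing cells and is carried by T cells too, whose markers fell as given above. Itgb7 reached the level for testing through Control-PyMT alone. The part of T cells in its level was not tested. Itga4 (−0.78) did not pass the test.

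Igkv14-111 stood apart from the other kappa segments. It had 73.5 and 46.2 scaled counts in MYC-PyMT, against 76.7 and 62.9 in Control-PyMT, and the groups overlapped (log2 change −0.25, limma adjusted p = 0.602), though it was lower with the length trend removed (−1.03, limma adjusted p = 0.00851). In Control-PyMT it took 34.7% (Wilson 95% interval 29.0% to 41.0%) and 33.6% (27.7% to 40.1%) of the kappa segment reads. In MYC-PyMT the leading segment took 11.3% in replicate 1, where it was Igkv10-96, and 10.1% in replicate 2, where it was Igkv14-111.

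Cxcl13, which draws B cells into follicles, had 294 and 178 scaled counts in MYC-PyMT and 59.9 and 117 in Control-PyMT (log2 change 1.44, limma adjusted p = 0.0127), a call lost without MYC-PyMT replicate 1 (0.0524) or Control-PyMT replicate 1 (0.152). Tnfsf13b, the B cell survival factor BAFF, had 6.04 and 29.7 in MYC-PyMT and 71.1 and 73.0 in Control-PyMT (−2.31, limma adjusted p = 0.0116), a call lost without Control-PyMT replicate 1 (0.154) or 2 (0.162).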
